A study of Mus musculus with 13 samples.

Results

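Immediate early genes were followed across cell classes of mouse small intestinal epithelium and times after tamoxifen in 13 single-cell libraries. The 10 members were taken by symbol: Fos, Fosb, Jun, Junb, Jund, Atf3, Egr1, Ier2, Dusp1 and Zfp36, out of 16204 genes in the files. All 10 were present in the files, and 9 to 10 of them had at least 1 transcript in each library. The mice carried Lgr5-CreERT2 on C57Bl6/J and a Rosa26LSL-YFP reporter. Tamoxifen thus marks cells that express Lgr5, the stem cells of the crypt, and their offspring with YFP (traced cells). The groups were, in order of time after tamoxifen, traced cells of 5 days (5 libraries), traced CD24+ cells of 3 weeks (1), a library labelled non-traced CD24+ of 3 weeks (1), and traced CD24+ cells (3), traced cells without the CD24 gate (1) and non-traced CD24+ cells (2) of 8 weeks. CD24 is a surface protein used for sorting. All groups had the same alleles, and times count from the tamoxifen injection. The word age below stands for this time, not for the age of the mice. Neither the number of animals per library nor their sex is given in the labels, so p-values measure the spread between libraries, which may be technical.

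Immediate early genes are switched on within minutes of a stimulus without new protein synthesis, mainly through MAP kinase signalling to serum response factor, its ETS partners and CREB. Fos and Fosb pair with Jun, Junb and Jund to form the transcription factor AP-1, while Atf3 and Egr1 are stress- and growth factor-induced transcription factors, and Ier2 is a small nuclear protein. Dusp1 (a phosphatase of MAP kinases) and Zfp36 (which speeds the decay of AU-rich mRNAs) act as brakes. Growth factors and stress raise the family in gut epithelium, and so does dispersal of a tissue into single cells; the part of dispersal in the values here was not tested.

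The promoters of 4 members that the results turn on are shown, since the family is known for control at this site; each sequence runs from 250 bases before to 50 bases after the transcription start (RefSeq, GRCm38.p6, 300 bases, 5′ to 3′ along the gene), and capitals mark matches to the motifs searched. They lie at chr12:85473640-85473939 (Fos, plus strand), chr7:28379179-28379478 (Zfp36, minus strand), chr1:191183284-191183583 (Atf3, minus strand) and chr17:26508423-26508722 (Dusp1, minus strand).
Fos: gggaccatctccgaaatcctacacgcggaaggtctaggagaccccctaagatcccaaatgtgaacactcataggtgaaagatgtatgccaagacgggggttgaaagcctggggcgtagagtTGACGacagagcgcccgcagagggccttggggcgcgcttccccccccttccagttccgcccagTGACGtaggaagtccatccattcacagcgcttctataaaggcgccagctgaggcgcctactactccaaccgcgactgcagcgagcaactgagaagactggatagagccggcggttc
Zfp36: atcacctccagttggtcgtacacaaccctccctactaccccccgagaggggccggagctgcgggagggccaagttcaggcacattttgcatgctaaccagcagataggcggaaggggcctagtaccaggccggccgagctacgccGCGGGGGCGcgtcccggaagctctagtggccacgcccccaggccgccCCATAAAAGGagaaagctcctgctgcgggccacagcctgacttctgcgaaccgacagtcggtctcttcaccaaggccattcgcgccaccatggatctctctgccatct
Atf3: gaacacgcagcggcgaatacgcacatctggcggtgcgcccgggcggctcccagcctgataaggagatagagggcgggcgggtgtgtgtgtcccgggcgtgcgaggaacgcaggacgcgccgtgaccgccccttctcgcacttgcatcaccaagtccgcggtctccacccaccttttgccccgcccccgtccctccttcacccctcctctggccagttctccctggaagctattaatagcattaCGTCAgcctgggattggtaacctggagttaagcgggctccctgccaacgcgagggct
Dusp1: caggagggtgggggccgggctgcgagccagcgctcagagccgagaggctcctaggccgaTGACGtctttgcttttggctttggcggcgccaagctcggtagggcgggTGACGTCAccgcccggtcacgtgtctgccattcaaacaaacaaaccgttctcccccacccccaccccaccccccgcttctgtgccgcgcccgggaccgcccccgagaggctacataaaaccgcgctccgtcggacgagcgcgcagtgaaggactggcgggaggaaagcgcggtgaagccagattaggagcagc
Windows of 8 of the 10 members were available, and Egr1 and Ier2 had none and were not searched. Searched on both strands were the CArG box (the element bound by serum response factor), TGACGTCA (the CREB and ATF palindrome), its core TGACG (contained in the palindrome), GCGNGGGCG (the Egr element) and TGANTCA (the AP-1 element). The Zfp36 window held a CArG box that began 58 bases before the start and an Egr element at 105 bases; 1.63% and 5.55% of all 32851 promoter windows hold these. The Dusp1 window held the palindrome at 143 bases before the start, found in 1.79% of windows. The core was in the windows of Fos (at 129 and 66 bases before the start), Fosb, Junb, Atf3 (7 bases before it, on the other strand) and Dusp1, against 20.8% of all windows. None of the 8 windows held the AP-1 element (7.81% of windows). The serum response element described for Fos lies further upstream than this window.

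The libraries held 421675 to 1385266 transcripts, and the 892 kept cells of 1248 (at least 3000 transcripts without spike-in RNA) had library medians of 5412 to 14458. All libraries used the same 96 cell barcodes, so a barcode shared between libraries does not mark a shared cell. Cells were put into classes by summed marker genes, none of them a member, and are called "-like": 221 were proliferating-like, 153 tuft-like, 122 stem-like, 115 enteroendocrine-like, 89 Paneth-like, 77 goblet-like and 38 enterocyte-like. A further 45 cells, with markers of more than 1 class or with a class carried by 1 marker, were left out of the classes. So were 32 cells below every threshold. Of the 45, 37 came from 5-day replicate 4, which stands apart from the other 5-day libraries by cells that carry goblet, enteroendocrine and enterocyte transcripts together. The 3-week library labelled non-traced CD24+ is named in the combined table as traced and without CD24, and 16.6% of its counts were spike-in RNA (1.31% to 8.25% in the others). Markers of other cells were low: 15 measured leukocyte markers summed to 0.0541 to 0.722 transcripts per 10000 in the later libraries and 0.409 to 0.686 in the 5-day ones, with Itgax at 0 in every library, and 10 markers of mesenchyme, vessel, nerve and blood summed to at most 0.294, with Pdgfra at 0 throughout. Levels below are transcripts per 10000 of the same sum of cells; members are compared between cells, not with each other.

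Fos, the inducible AP-1 partner, showed the widest range between classes among the members that were detected in all of them, with class means 36.6-fold apart. Its level in tuft-like cells, the chemosensory cells, had a lowest value of 0, a median of 0.111 and a highest value of 0.432 over 7 libraries. Enteroendocrine-like cells, which secrete hormones, had 1.53, 5.62 and 10.9 (lowest, median and highest of 10 libraries), enterocyte-like cells, which absorb nutrients, 4.93, 5.43 and 8.09 (5 libraries), goblet-like cells, which secrete mucus, 1.26, 4.20 and 7.97 (10), and Paneth-like cells, which sit in the crypt and release antimicrobial peptides, 2.36, 2.86 and 6.69 (9). Proliferating-like cells had 0, 1.45 and 2.74 (11), and stem-like cells 0.0916, 0.510 and 5.34 (10). Tuft-like cells thus lay below every enteroendocrine-like, enterocyte-like, goblet-like and Paneth-like sum, and the 4 differentiated classes overlapped one another. Stem-like and proliferating-like cells overlapped each other too.

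In the edgeR fit across classes with the library as a block, 10 of 10 members differed between classes at an adjusted p under 0.05, as did 81.6% of the 4182 genes tested, so the share alone says little about the family. Each class was then set against the mean of the other classes. Beside the members' counts stand the shares of all tested genes that passed in the same direction.

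**Figure D1:**
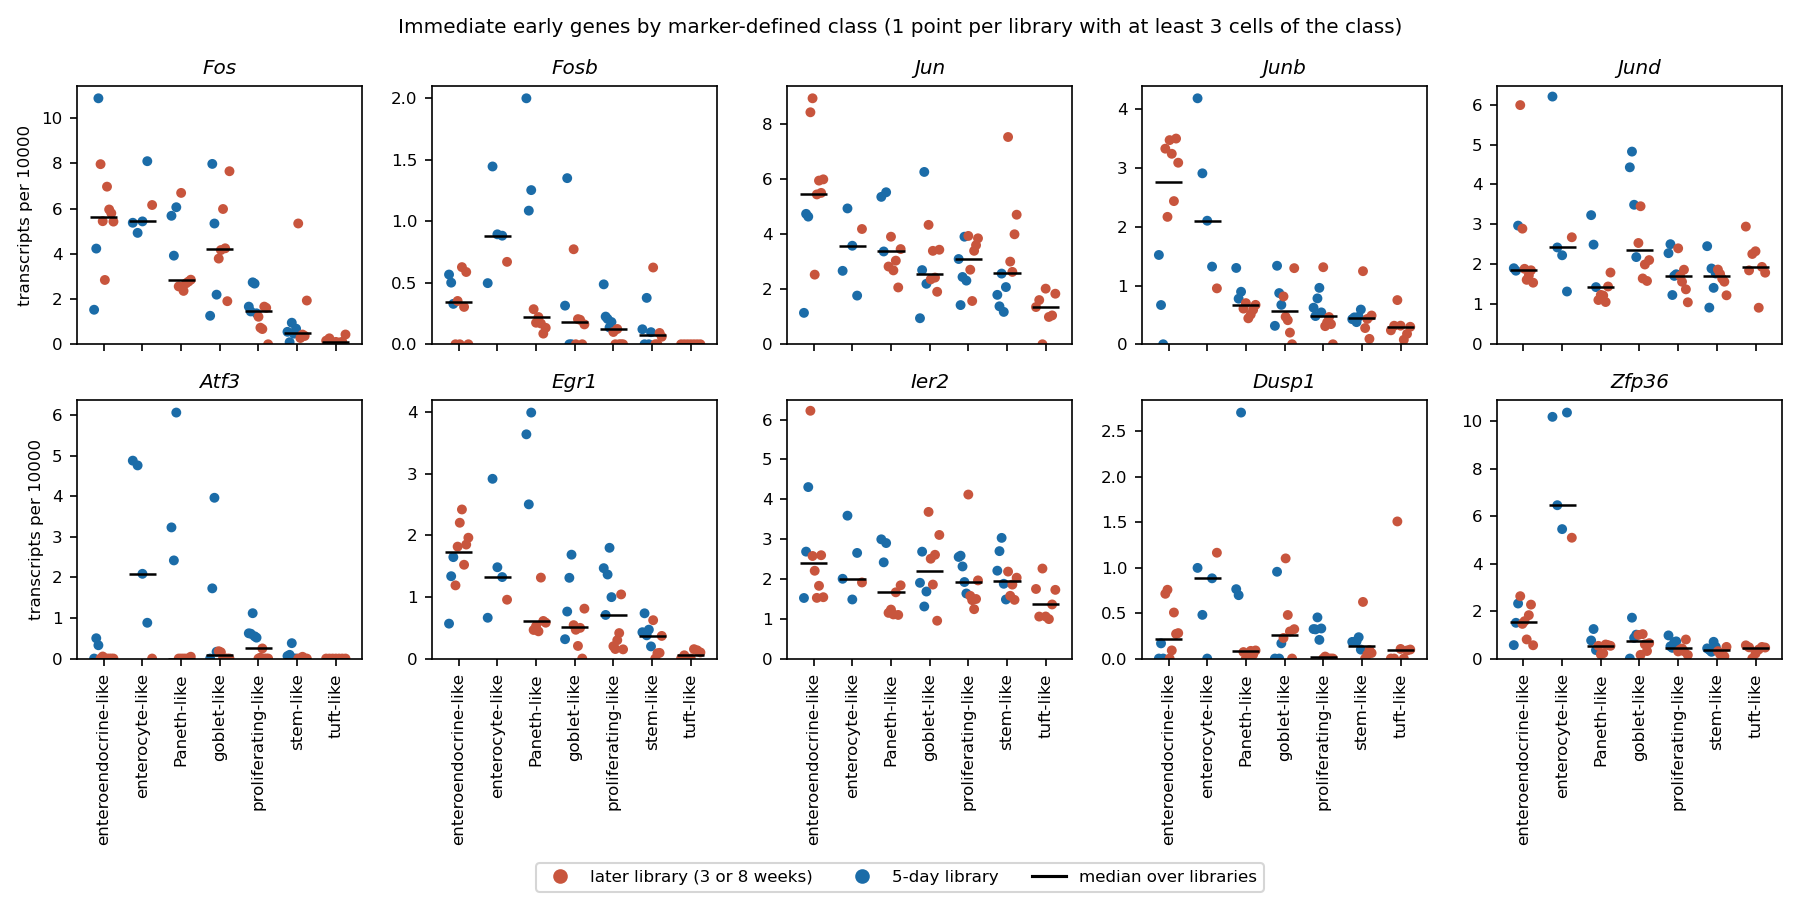
Levels of the 10 members in transcripts per 10000 (y axis, linear, own scale for each gene) in 7 marker-defined classes. Each point is the sum of at least 3 cells of 1 library, red for later and blue for 5-day libraries, and bars are medians; Fos is at most 0.432 in tuft-like cells, and all 5 enterocyte-like sums of Zfp36 lie above the highest value of any other class, 2.63.

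Tuft-like cells had 7 of 10 members lower (18.3% of genes were lower there), and no member was higher. For 6 of the 7 they had the lowest mean of all classes; Zfp36 averaged 0.368 per 10000 in tuft-like and 0.344 in stem-like cells. Fos averaged 0.164 ± 0.143 per 10000 (SD, n = 7), and its log2 fold change against the other classes was -3.76 (SE 0.448, adjusted p = 1.43e-10). The zinc finger factor Egr1 was at 0 in 3 of 7 libraries and at most 0.152, with a log2 fold change of -2.66 (SE 0.500, adjusted p = 1.26e-05). The AP-1 partners Junb (-2.04) and Jun (-1.61), the mRNA decay factor Zfp36 (-1.26) and Ier2 (-0.71) were lower too. Tuft-like cells nevertheless held Jun at 1.26 ± 0.676 and Ier2 at 1.46 ± 0.475 per 10000, so these members were reduced rather than missing. Jund, the AP-1 member with steady expression, had 2.00 ± 0.622 in tuft-like cells and a log2 fold change of -0.12 (SE 0.172, adjusted p = 0.631).

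Fosb and Atf3 had no transcript in any of the 7 tuft-like sums. Fosb passed as the seventh lower member (adjusted p = 0.000316), and Atf3 did not pass (adjusted p = 0.223). With a floor of 3 counts over the whole group (0.0229 per 10000), Fosb was at least 17.5-fold lower in tuft-like cells than in enteroendocrine-like cells (0.402 per 10000 in their pooled sum of both ages). Against stem-like and proliferating-like cells the folds were at least 4.11 and 7.08. In later libraries alone these 2 classes held 0.0619 and 0.0459 per 10000 (4 and 6 transcripts), and enteroendocrine-like cells 0.386. Atf3 was at 2.39 per 10000 pooled in enterocyte-like and 0.0543 in enteroendocrine-like cells. All 76 enterocyte-like transcripts came from 5-day libraries. The 1 later enterocyte-like sum held 0 transcripts and the 7 later enteroendocrine-like sums held 1, so no fold against tuft-like cells is given for Atf3. Tuft-like cells with 3 or more per library came from later libraries only, where Atf3 was low in every class. A fitted fold change for these 2 members depends on how zeros are handled, also where tuft-like cells are part of the comparison, so levels are given in its place. With the other cells of the same library summed as the comparison, the fold changes of Fos (-4.31), Egr1 (-3.48), Junb (-2.50) and Jun (-1.78) kept their direction and their calls.

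Enteroendocrine-like cells had 6 of 10 members higher, against 17.2% of genes higher, and 0 lower. Fos averaged 5.70 ± 2.61 per 10000 (n = 10; log2 fold change 1.63, SE 0.240, adjusted p = 6.91e-08), Junb 2.34 ± 1.25 (1.91, SE 0.231, adjusted p = 2.52e-10) and Egr1 1.65 ± 0.534 (1.82, SE 0.268, adjusted p = 6.71e-08). Jun (0.79) and Zfp36 (0.79) also passed, as did Fosb at 0.327 ± 0.251 per 10000. The Fosb mean lay below those of enterocyte-like (0.878) and Paneth-like cells (0.601) and above those of the remaining classes. Its comparison includes the tuft-like sums without Fosb transcripts. Atf3 stood apart from the 6 higher members: it averaged 0.0879 ± 0.178 per 10000 and had a median of 0. Among the other rapidly induced genes, Nr4a2, an orphan nuclear receptor, had the largest rise in these cells (126.2 against 6.77 CPM on average; log2 fold change 3.49, adjusted p = 2.21e-12). Within the 5-day libraries alone, with 12 cells in 3 libraries, 0 of 8 members passed, and 13 of 1886 genes in all. There, 4 of the 6 members had negative log2 fold changes: Jun (-0.17), Junb (-0.52), Egr1 (-0.61) and Zfp36 (-0.044).

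Zfp36 had its highest levels in enterocyte-like cells. Its level was 10.2, 6.46, 5.45 and 10.4 per 10000 in 5-day replicates 1, 2, 3 and 5 and 5.09 in the 3-week library labelled non-traced CD24+. All 5 values lay above every sum of every other class, of which the highest was 2.63 (enteroendocrine-like). The log2 fold change was 3.24 (SE 0.217, adjusted p = 4.94e-20). Fos (1.37) and Junb (1.43) were higher too, as were Fosb (0.878 ± 0.357 per 10000) and Atf3, which makes 5 of 10 members (18.4% of genes higher), and none was lower. Atf3 had 4.88, 4.76, 2.09 and 0.883 per 10000 in the same 4 5-day libraries and 0 in the later one. These sums rest on 3 to 10 cells each, and 1 of the 5 libraries is the doubted one; without it and 5-day replicate 4, Zfp36 had a log2 fold change of 3.19 and the same 5 members passed. DESeq2 called 3 of the 5, without Fosb and Atf3, and clusters in place of marker classes called 2 of 8 tested members higher (Zfp36 and Atf3) and 1 lower (Ier2, -0.96), without Fos (0.68) and Junb (0.54).

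Paneth-like cells had 9 of 10 members higher under the usual scaling (19.4% of genes higher); Zfp36 did not pass (0.27, adjusted p = 0.368). This count depends on scaling, because Paneth markers took a median of 4631 of every 10000 transcripts of a Paneth-like cell. Scaled by all transcripts, the median fold change of all genes moved to -0.85, and 4 members were higher and 1 lower. Fos (1.95 with the usual scaling and 1.06 with all transcripts) and Egr1 (2.07 and 1.21) were higher under both, as were Fosb and Atf3. Jun (1.17 and 0.27) and Dusp1 (1.40 and 0.57) lost their calls, and Junb, Jund and Ier2 turned to negative values that did not pass. Zfp36, with no call under the usual scaling, was lower (-0.61). The rises of Atf3 and Egr1 came with the 5-day libraries: Paneth-like cells of later libraries had Atf3 at 0 to 0.0445 and Egr1 at 0.442 to 1.31 per 10000, against 2.42 to 6.07 and 2.50 to 3.99 at 5 days. Those of Fosb and Dusp1 did so too. Later Paneth-like cells averaged 0.178 and 0.0480 per 10000 for these, against 1.45 and 1.39 at 5 days.

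Goblet-like cells differed in 1 member: Fos was higher (4.45 ± 2.31 per 10000, n = 10; log2 fold change 1.25, SE 0.250, adjusted p = 6.38e-05; 13.9% of genes higher). The other 9 members had log2 fold changes of -0.36 to 0.72 and did not pass. Goblet-like cells stood out instead by Klf4, a differentiation factor among the other rapidly induced genes (575 against 80.7 CPM; log2 fold change 3.09, adjusted p = 3.61e-19).

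Stem-like and proliferating-like cells were lower in 6 and 5 members (15.1% and 18.7% of genes lower), and no member was higher in either. Fos fell by 1.67 on the log2 scale in stem-like cells (SE 0.321, adjusted p = 2.76e-05) and by 0.78 in proliferating-like cells (SE 0.250, adjusted p = 0.00895). Zfp36 fell by 1.83 and 0.96, Junb by 1.03 and 0.68, Jund by 0.51 and 0.43, and Dusp1, the MAP kinase phosphatase, by 1.46 and 1.19. Pooled Dusp1 of proliferating-like cells was at 0.334 per 10000 at 5 days and at 0.00764 in later libraries (1 transcript). At 5 days it lay below Paneth-like (1.07), enterocyte-like (0.516) and goblet-like cells (0.359). It lay above stem-like (0.172) and enteroendocrine-like cells (0.0698) there. Egr1 was lower in stem-like cells (-1.64, adjusted p = 0.000316), while its value in proliferating-like cells was -0.13 (adjusted p = 0.775). Jun and Ier2 did not pass in either class; Jun had -0.13 in stem-like cells (SE 0.183) at a level of 3.08 ± 1.91 per 10000. When scaled by all transcripts, Junb and Jund of proliferating-like cells and Dusp1 of stem-like cells no longer passed. Dusp1 of stem-like cells lost its call when 1 of 6 libraries was left out (-1.51 to -1.27). Without 8-week traced CD24+ replicate 1, 3 members passed in proliferating-like cells, where Junb had -0.57; Dusp1 was lost there without the 3-week library labelled non-traced CD24+ (-0.99). In the 8-week libraries alone, 3 of 7 tested members were lower in stem-like cells (Fos, Egr1 and Zfp36) and 2 of 7 in proliferating-like cells (Fos and Junb). Of all 4368 genes tested in these fits, 1025 passed in stem-like and 1686 in proliferating-like cells, in either direction. The classes are neighbours on a scale: 86 proliferating-like, stem-like or unnamed cells lay within 1.25 times of the proliferating threshold, and 11 stem-like or unnamed cells within that of the stem threshold. Of the cells given no other differentiated class, 26 lay as near to the enterocyte and 30 to the goblet threshold.

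The growth factor and kinase genes upstream were examined as a fixed list of 32, of which 13 could be tested between classes. Over all genes tested, 18.4% were higher in enterocyte-like, 17.2% in enteroendocrine-like and 19.4% in Paneth-like cells, and 18.3% were lower in tuft-like cells. In enterocyte-like cells 4 were higher and 1 lower: the EGF receptor ligands Areg (313 against 6.02 CPM; log2 fold change 5.08, adjusted p = 8.81e-11) and Hbegf (179 against 16.8 CPM; 2.80, adjusted p = 1.10e-06), and the kinases Map2k2 (1.16) and Rps6ka1 (0.98) were higher, and Nras was lower (-0.87). Paneth-like cells had 0 of 13 that passed (edgeR; 1 at an unadjusted p under 0.05), tuft-like cells had Mapk3, the ERK1 kinase, higher (0.52) and Rps6ka1 lower (-0.52), and enteroendocrine-like cells had Mapk14, the p38 kinase, higher (1.28). Of 12 heat shock genes 11 could be tested. In tuft-like cells 5 of them were lower, among them the inducible Hspa1a (7.83 against 84.2 CPM; -2.61) and Hspa1b (-1.35), and 4 were higher, among them Hsph1 (0.81) and Dnaja1 (0.49). Enteroendocrine-like cells, with 6 higher members, had 1 heat shock gene higher (Hsp90aa1, 0.40) and 1 lower (Hspe1, -0.36). Paneth-like cells had 3 higher under the usual scaling, Hspa1a (1.78), Hspa1b (1.06) and Hspa5 (0.82), and 3 lower, Hsp90aa1 (-0.40), Dnaja1 (-0.34) and Hspa8 (-0.27). In mean CPM, which is per all transcripts, Hspa5 (613 against 641) and Hspa1b (68.96 against 78.6) were not above the other classes, and Hspa1a was at 76.5 against 75.4.

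Other rapidly induced genes were a list of 45, of which 18 could be tested between classes, and all 18 differed between classes, as did 81.6% of all genes tested. Tuft-like cells had 7 lower (18.3% of all genes were lower) and 4 higher, with Nr4a2 (-4.01), Klf10 (-1.87), Tob1 (-1.40) and Ier5 (-1.32) lower and Klf4 (1.56) and Gadd45a (1.22) higher. In stem-like cells 7 were lower (15.1% of all genes) and 4 higher, among them Btg2 lower (-1.32) and Myc, a growth regulator, higher (1.89). Enteroendocrine-like cells had 5 higher (17.2% of all genes) and 3 lower, with Gadd45a (2.01), Gadd45g (1.88) and Btg2 (1.14) higher and Klf4 (-1.94) and Zfp36l1 (-1.54) lower. Paneth-like cells had 8 higher (19.4% of all genes) and 1 lower under the usual scaling, led by Gadd45g (3.09), Klf4 (2.18) and Btg2 (1.64). The lists and the members were chosen with earlier results of these data known, so these counts describe the classes and are not independent support.

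Between ages, all kept cells of the 8 later libraries were first set against those of the 5 libraries of 5 days. Atf3 showed the widest gap: it had 0, 0.0145 and 0.231 per 10000 (lowest, median and highest) in the later libraries, against 0.788, 1.31, 1.40, 0.821 and 0.906 in 5-day replicates 1 to 5. Every later library lay below every 5-day library. Its log2 fold change was -4.67 (SE 0.531, adjusted p = 3.92e-05). Egr1 likewise did not overlap, with 0.366, 0.540 and 0.872 in the later libraries, against 1.35, 1.34, 1.41, 1.21 and 1.26 at 5 days (log2 fold change -1.26, SE 0.204, adjusted p = 0.000401). Fosb averaged 0.178 ± 0.126 (n = 8) in later and 0.476 ± 0.160 (n = 5) in 5-day libraries (-1.69, SE 0.366, adjusted p = 0.00293), and the libraries of 3 weeks lay within the 5-day range. Dusp1 averaged 0.173 ± 0.171 in later and 0.391 ± 0.0620 in 5-day libraries (-1.44, SE 0.399, adjusted p = 0.0124); the 3-week library labelled non-traced CD24+ had the highest value of all, 0.578. These 4 members passed as lower, against 15.2% of 8352 genes, and 0 members were higher. The median log2 fold change of the 10 members was -0.55, against -0.0067 over all genes tested.

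**Figure D2:**
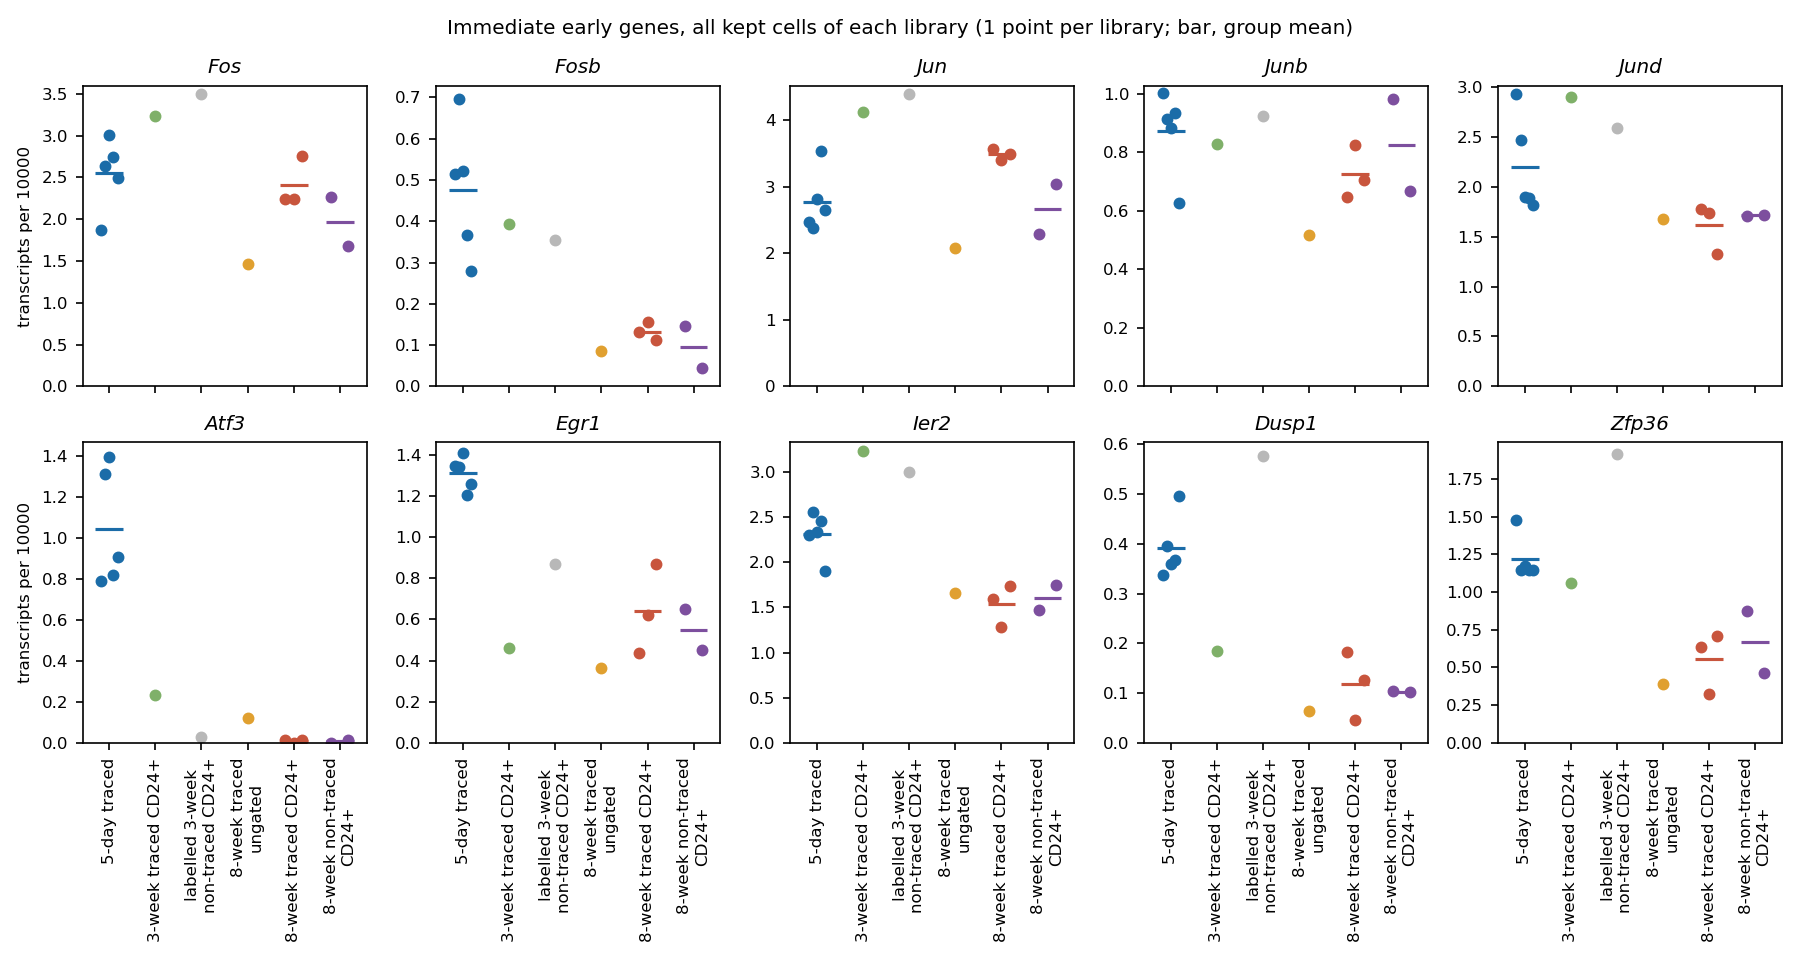
Levels of the 10 members in transcripts per 10000 (y axis, linear, own scale for each gene) over all kept cells of each library, by group in order of time. Points are libraries and bars are group means; Atf3 and Egr1 of the 5 5-day libraries lie above all 8 later libraries, whereas Ier2 of the 2 libraries of 3 weeks (3.23 and 3.00) lies above every other library.

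The other 6 members did not pass over all cells. Jun, a Fos partner, had 3.30 ± 0.809 in later and 2.77 ± 0.463 per 10000 in 5-day libraries (log2 fold change 0.16, SE 0.191), and Fos 2.42 ± 0.704 and 2.55 ± 0.424 (-0.17, SE 0.209). Zfp36 (-0.75, adjusted p = 0.0927), Ier2 (-0.34), Junb (-0.30) and Jund (-0.29) were negative. The 2 libraries of 3 weeks decided part of this. Without them, Zfp36 (-1.17), Ier2 (-0.64) and Jund (-0.50) passed as well, which made 7 lower members. In that fit, 3213 of 8318 genes passed in either direction. In the 6 libraries of 8 weeks Ier2 had 1.29, 1.63 and 1.75 per 10000 (lowest, median and highest), below all 5-day libraries (1.90 to 2.55).

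The later and the 5-day libraries also differed in more than time. The X-inactivation transcript Xist was at 0.813 to 1.74 per 10000 in the later libraries and at 0 to 0.0134 in the 5-day ones, and the Y-linked Ddx3y was at 0 in the later and at 0.197 to 0.424 in the 5-day ones. Tuft-like cells numbered 152 in the later and 1 in the 5-day libraries, and enterocyte-like cells 14 and 24. Time, the sex of the mice and the CD24 gate cannot be told apart in the later CD24+ libraries. In the 8-week library sorted without CD24, Atf3 was at 0.119, Egr1 at 0.366 and Fosb at 0.0861 per 10000, each below all 5 5-day libraries. This library still differs in sex from the 5-day ones, and the part of library handling was not tested. In sums over mixed cells, fewer cells of a type and less RNA per cell cannot be told apart, so the ages were also compared within classes.

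Paneth-like cells kept the age difference. Atf3 had 0 in 5 of the 6 later libraries and 0.0445 in 8-week non-traced CD24+ replicate 2 (1 transcript among 11 cells), against 3.24, 2.42 and 6.07 per 10000 in 5-day replicates 2, 3 and 5. Its 6 later sums held 1 transcript in all and the 3 5-day sums 108, so the size of the fold is set by that 1 transcript; the difference passed (adjusted p = 7.86e-09). Egr1 had 0.464, 0.442, 1.31 and 0.527 in the traced libraries of 8 weeks (CD24+ replicates 1 to 3, then ungated) and 0.610 and 0.582 in the non-traced ones, against 3.64, 2.50 and 3.99 at 5 days (log2 fold change -2.27, SE 0.328, adjusted p = 8.11e-05). Fosb had 0.0866 to 0.285 in the later and 1.09 to 2.00 in the 5-day libraries (-3.10, SE 0.458, adjusted p = 0.000101). Ier2 (-0.98) and Jund (-0.93) passed too, but not without 5-day replicate 2 (-0.92 and -0.65), so 5 of the 8 members tested were lower, against 17.7% of 1715 genes. Dusp1 was not tested, being under the filter on low counts: it had 0 to 0.0890 in the later and 0.697 to 2.71 in the 5-day libraries. Fos (-0.72, adjusted p = 0.0670) did not pass, but did without the ungated library (-0.93).

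Proliferating-like cells had 3 of 8 tested members lower (5.13% of 4580 genes lower) and none higher. Atf3 had 0 in 4 of the 6 later libraries, 0.0220 in 8-week traced CD24+ replicate 1 and 0.249 in the ungated 8-week library, against 0.623, 0.612, 1.12, 0.549 and 0.515 per 10000 in 5-day replicates 1 to 5. The groups did not overlap (log2 fold change -3.00, SE 0.499, adjusted p = 0.000329). Egr1 had 0.149, 0.249 and 1.04 (lowest, median and highest) in the later libraries, against 1.47, 0.708, 1.36, 1.80 and 0.997 at 5 days, and the groups overlapped in 8-week traced CD24+ replicate 3 (log2 fold change -2.001, SE 0.350, adjusted p = 0.000485). Fos was lower by -1.04 (adjusted p = 0.0322), with 0 to 1.66 per 10000 in the later and 1.37 to 2.74 in the 5-day libraries; its call was lost without 5-day replicate 3 or 4, 8-week traced CD24+ replicate 1 or the ungated library (-0.98 to -0.85). Dusp1, under the filter, had 1 transcript in 1 of the 6 later libraries and 47 over the 5 5-day libraries. The 3-week library labelled non-traced CD24+ supplied the highest later values of Junb (1.31) and Ier2 (4.12). Without it, Junb, Ier2 and Zfp36 passed as well, which made 6 lower members. In that fit, 876 of 4843 genes passed in either direction.

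**Figure D3:**
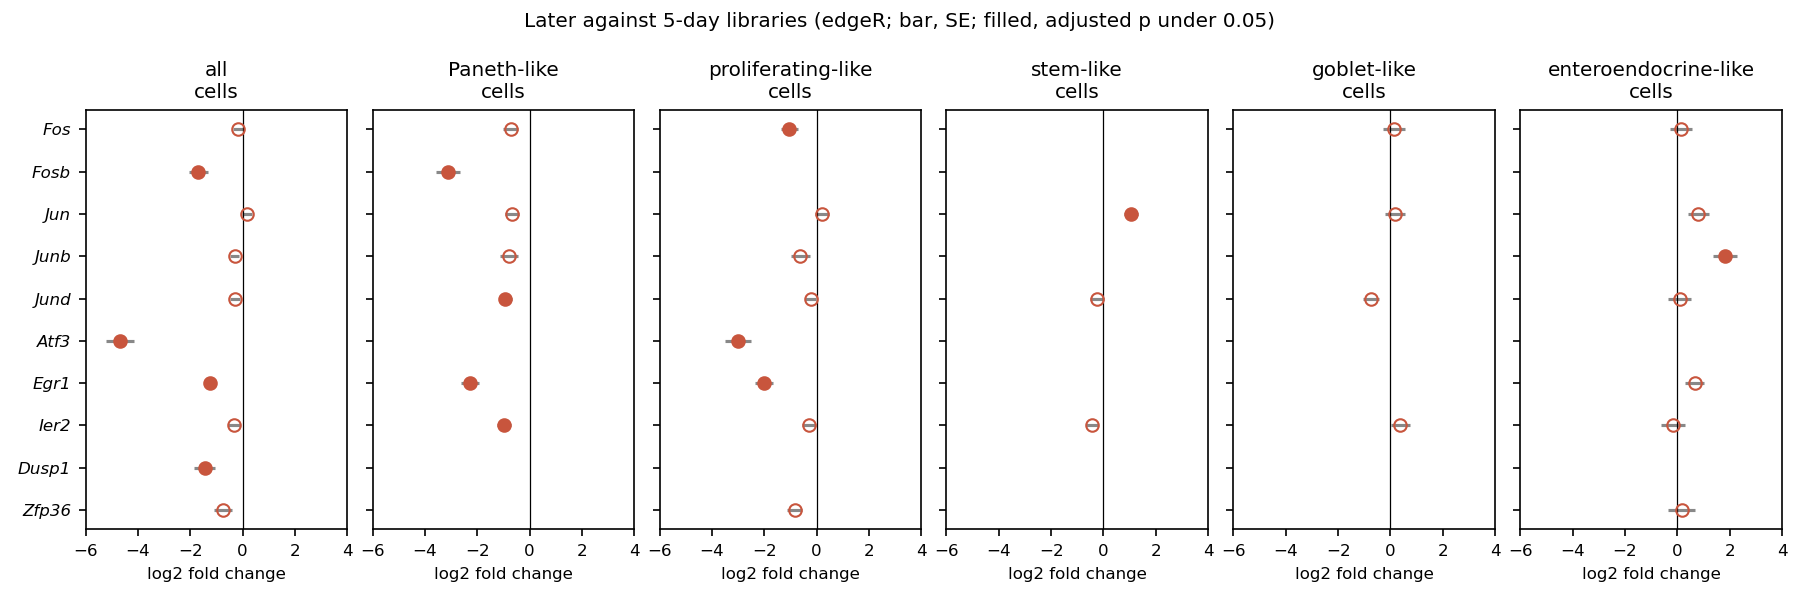
Log2 fold change (x axis) of later against 5-day libraries for each member (rows) over all cells and within 5 classes. Filled points passed (adjusted p under 0.05), bars are standard errors, and a missing point means that the member was under the filter on low counts, or, for Atf3 of Paneth-like cells, that the later sums held 1 transcript; Atf3, Fosb and Egr1 lie furthest to the left, and Junb of enteroendocrine-like cells (1.80) lies furthest to the right.

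Enteroendocrine-like cells, compared after their values had been seen, had Junb higher, and no tested member passed as lower. Junb had 3.33 per 10000 in the 3-week traced library, 2.17, 3.24 and 2.44 in the 8-week traced CD24+ replicates, 3.48 in the ungated library and 3.50 and 3.09 in the non-traced ones, against 1.52, 0.668 and 0 in 5-day replicates 2, 4 and 5. All 7 later values lay above the 3 5-day values (log2 fold change 1.80, SE 0.457, adjusted p = 0.0106), and 17.5% of the 1587 genes tested were higher. The 5-day sums rest on 3, 6 and 3 cells, and the call was lost without 5-day replicate 4. Egr1 had 1.19 to 2.42 in the later and 0.567 to 1.65 in the 5-day libraries (0.66, SE 0.356, adjusted p = 0.163). The other 5 tested members did not pass, and Atf3 had 1 transcript in the later sums and 4 in the 5-day sums.

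Stem-like cells differed in Jun, which was higher: 7.52 per 10000 in the 3-week library labelled non-traced CD24+, 3.00, 3.99 and 4.70 in the 8-week traced CD24+ replicates and 2.63 in the ungated library, against 1.79, 1.38, 2.57, 1.17 and 2.08 in 5-day replicates 1 to 5. The groups did not overlap (log2 fold change 1.05, SE 0.269, adjusted p = 0.00902; 7.58% of 1874 genes were higher). Jun, Jund and Ier2 were the members above the filter there, and Jund and Ier2 did not pass. Goblet-like cells had 0 of 4 tested members that passed (edgeR; 1 at an unadjusted p under 0.05, Jund with -0.73, adjusted p = 0.173; 3.85% of genes passed), and DESeq2 called 0. Atf3 of goblet-like cells, under the filter, had 0 to 0.181 in the later and 0 to 3.97 in the 5-day libraries.

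Whether the age difference itself varied between these 5 classes was tested, after the class results had been seen, by an interaction of class and age with the library as a block, over 50 sums (edgeR). It passed for Dusp1 (adjusted p = 5.23e-05), Egr1 (0.000631), Junb (0.0140) and Jun (0.0207), 4 of 10 members, against 5.47% of 4518 genes. Egr1 averaged 0.657 ± 0.329 (SD, n = 6) in later and 3.38 ± 0.779 (n = 3) in 5-day Paneth-like cells, but 1.85 ± 0.410 (n = 7) in later and 1.18 ± 0.556 (n = 3) in 5-day enteroendocrine-like cells. Jun averaged 4.37 ± 1.94 (n = 5) in later and 1.80 ± 0.555 (n = 5) in 5-day stem-like cells, but 2.99 ± 0.638 in later and 4.75 ± 1.195 in 5-day Paneth-like cells. Dusp1 averaged 0.0480 ± 0.0404 in later and 1.39 ± 1.14 in 5-day Paneth-like cells, but 0.374 ± 0.294 in later and 0.0557 ± 0.0964 in 5-day enteroendocrine-like cells, where the 5-day sums held 1 transcript. For Atf3 the interaction did not pass (adjusted p = 0.597), which does not show that the classes changed alike.

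**Figure D4:**
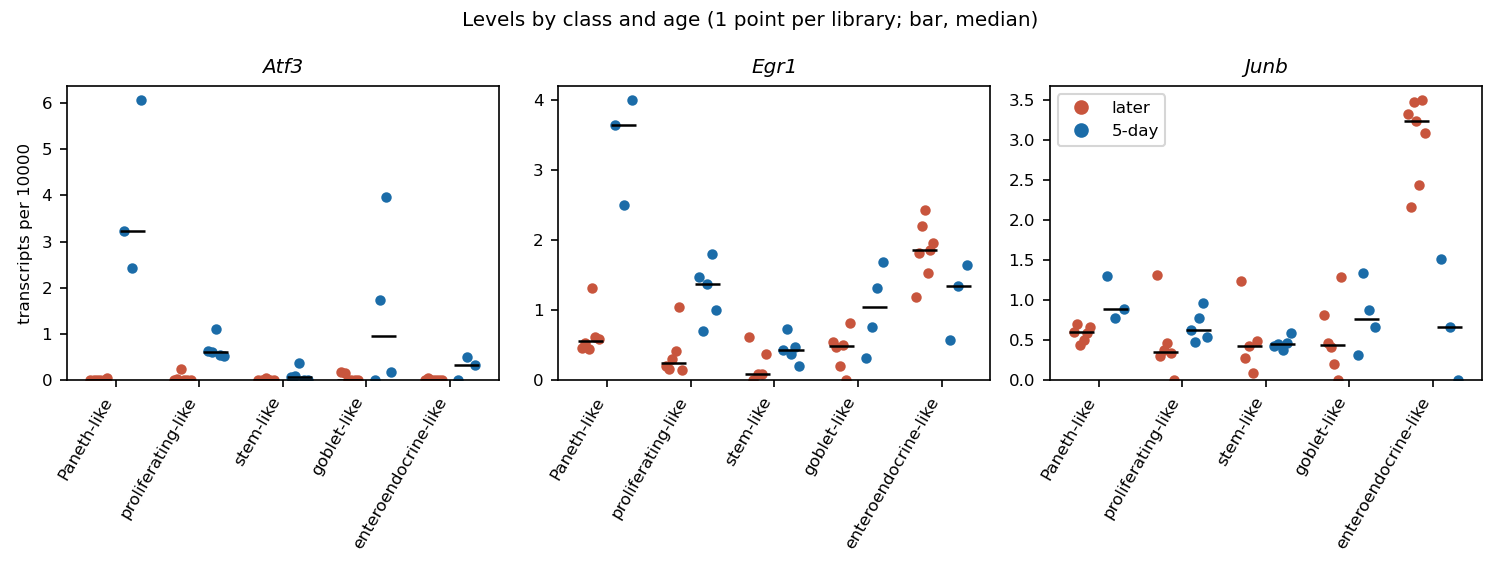
Levels of Atf3, Egr1 and Junb in transcripts per 10000 (y axis, linear) in 5 classes, with later libraries (red) left of 5-day libraries (blue). Points are sums of at least 3 cells of 1 library and bars are medians; Atf3 and Egr1 stand high in 5-day Paneth-like cells (2.42 to 6.07 and 2.50 to 3.99), and Junb stands high in later enteroendocrine-like cells (2.17 to 3.50).

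In the genes upstream, 21 of 32 could be tested between ages over all cells. Of all genes tested, 15.2% were lower in later libraries over all cells and 5.13% in proliferating-like cells. Areg was lower in later libraries (2.80 against 49.8 CPM; log2 fold change -4.40, adjusted p = 8.52e-05), as were Hbegf (13.7 against 39.3 CPM; -1.78, adjusted p = 0.00128) and the receptor Erbb2 (-0.74), and the kinase Map2k1 was higher (0.55). Both ligands were also the enterocyte-like genes named above, and enterocyte-like cells numbered 14 in later and 24 in 5-day libraries; the part of this make-up in the result was not tested. Of 27 other rapidly induced genes tested, 4 were lower, among them Ier3 (-2.33) and Ier5 (-1.51), a share near that of all genes. Another 7 were higher, among them Gadd45g (1.89), Klf4 (1.30) and Phlda1 (1.29). Of 11 heat shock genes 2 were lower (Hspd1, -0.76, and Hspe1, -0.68) and 3 higher (Hspa5, 1.09, Hsp90aa1, 0.94, and Dnaja1, 0.39). In proliferating-like cells 1 heat shock gene was lower, the inducible Hspa1a (34.6 against 100 CPM; -2.24, adjusted p = 0.0179), and 4 were higher: Hsp90aa1 (1.38), Hspa5 (0.72), Hsp90ab1 (0.69) and Dnaja1 (0.54).

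Traced and non-traced CD24+ cells of 8 weeks were compared last, 3 libraries against 2. Over all cells 0 of 8 tested members passed in edgeR (1, Jun with a log2 fold change of 0.40 and SE 0.175, at an unadjusted p under 0.05) and 0 in DESeq2, beside 4.21% of 8762 genes. Jun had 3.57, 3.40 and 3.49 per 10000 in the traced replicates, against 2.29 and 3.04 in the non-traced ones. Fos had 2.24, 2.24 and 2.75 in the traced and 2.26 and 1.68 in the non-traced replicates (0.29, SE 0.192). In tuft-like cells 0 of 3 tested members passed in edgeR (0 at an unadjusted p under 0.05) and 0 in DESeq2 (0.0663% of genes passed).

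Over all kept cells, of every class and age, the transcripts of the rarer members lay in few cells. The tenth of the kept cells with the most transcripts of a member held 94.3% of all Atf3 transcripts, 86.3% of Dusp1, 84.8% of Fosb, 55.3% of Fos, 35.6% of Ier2 and 33.9% of Jund; these shares include the differences between classes and ages, and for a rare member they are set more by counting. The highest value of a member in a cell was 51.9 transcripts (Fos), far from saturation of the molecular barcodes. Across 794 cells, after the mean of each library and class was removed from log2(level per 10000 + 1), Pearson's r was 0.44 for Fos with Egr1, 0.43 with Junb, 0.40 with Jun and 0.37 with Fosb. Jund stood apart, with r of 0.04 to 0.14 to the other members, although it was detected in more cells than any other member. The median over the 45 pairs was 0.236. These values are descriptions: cells of a sum share a library, and all members of a cell share its depth.

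**Figure D5:**
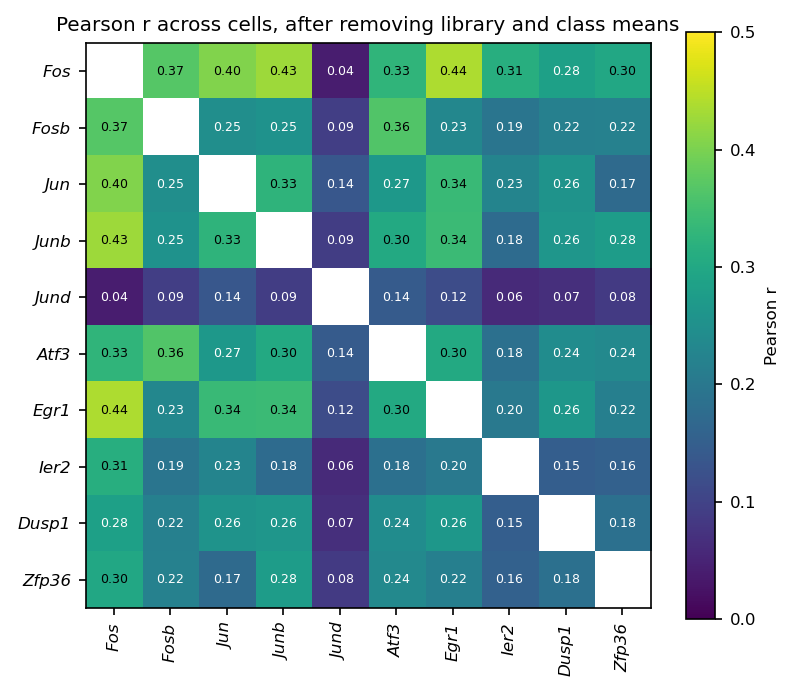
Pearson's r across 794 cells for each pair of members, after the mean of each library and class was removed (color scale 0 to 0.5, values printed). Fos forms the highest pairs (Egr1, 0.44; Junb, 0.43; Jun, 0.40), and the Jund row is the lowest.

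Across the 62 sums per library and class, each member was also set against the mean of the other 9 after centring on the library. Fos (r = 0.79) and Egr1 (0.75) followed the others most closely, and Jund (0.32) and Ier2 (0.43) least. Among 7045 genes of at least 20 CPM that are not members, the pattern most like the family's mean was that of Btg2, an antiproliferative gene of the list of other rapidly induced genes (r = 0.78). It was followed by Slc2a5, a fructose transporter on the enterocyte marker list (0.68), Krt20, a keratin of differentiated cells (0.67), Slc18a1, a monoamine transporter (0.60), Dock6 (0.59), Cyp2c68 (0.58), Entpd5 (0.58) and Cldn4, a tight junction protein (0.58). These sums share libraries and classes, so the values carry no test.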

How the data were processed

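Single cells were measured by CEL-seq, which counts molecular barcodes at the 3′ end of transcripts, in 13 libraries of 96 cell barcodes. Reads were aligned with BWA 0.6.2-r126 to mm10, per the submitters' processing notes; gene models and filters are not given in the sources used here. The authors deposited expected counts (estimated counts of transcripts): 99.9954% of values above 0 lie within 0.01 of the transform of a whole number of the 256 molecular barcodes that corrects for collisions. The deposited tables of single libraries hold this same other unit (collision-corrected transcripts, not scaled), and 145 values are saturated. No value was scaled between cells by the authors as far as the values show. Per library, 421675 to 1385266 transcripts were read.

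Of 1248 barcodes, 892 were kept, those with 3000 or more transcripts after spike-ins were set aside, and 356 were removed. Classes came from summed markers, in transcripts per 10000: at least 500 for Paneth, 200 goblet, 30 tuft, 30 enteroendocrine, 100 enterocyte, 60 proliferating and 10 stem; these thresholds were set after the marker values were seen. No doublet caller was run; cells of more than 1 class were left out, except that a cell over the goblet threshold and that of Paneth or enteroendocrine cells was given the other class, and stem or proliferating cells had to lie under the other thresholds (proliferating was assigned before stem). A class carried by 1 marker was left out too. Sums of at least 3 cells per library and class were rounded and tested with edgeR 4.0.16 in R 4.3.3 (its quasi-likelihood test after filterByExpr and TMM; Benjamini-Hochberg adjustment over all genes tested; threshold 0.05), with the library as a block between classes. The standard error of a log2 fold change is its size divided by the square root of F. The scripts were tested on simulated data. The members, lists and tests were chosen with earlier results of these data known. Up to 6 genes per list and comparison were named, those with the largest changes among called genes of at least 20 CPM in the higher group. Python 3.11.15 with pandas 2.3.3, numpy 2.4.6, scanpy 1.11.5 and leidenalg 0.10.2 served the rest; DESeq2 1.42.0 and Leiden clusters (2000 variable genes, 30 components, 10 neighbours) were alternatives. Counting error limits low members: intervals and floors cover counting error only.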

Additional observations from a re-analysis of the deposited data

Results flagged for a closer look

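The levels of the 10 members over all cells were examined in the 8 later and in the 5 5-day libraries, and 3 of these 20 groups held a library far from the others. The rule used is one that would pick about 1 in 20 independent groups by chance, and these groups share their libraries. Dusp1 was at 0.578 per 10000 in the 3-week library labelled non-traced CD24+, against 0.0464 to 0.184 in the other 7 later libraries. Zfp36 was at 1.91 in the same library, against 0.325 to 1.06 in the other later ones. Zfp36 was at 1.48 in 5-day replicate 1, against 1.14 to 1.17 in the other 4. The labels of this 3-week library disagree with its name in the combined table, and its share of spike-in RNA was the highest; their part in these values was not tested. In the same library 10 enterocyte-like cells held 54 of the 71 Zfp36 and 12 of the 21 Dusp1 transcripts. The highest cell held 57.5% of its Dusp1 transcripts. In 5-day replicate 1, 9 enterocyte-like cells held 62 of the 110 Zfp36 transcripts. The part of these cells was not tested either.

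The age difference varied between 5 classes, by an interaction in edgeR over all genes, for Dusp1 (adjusted p = 5.23e-05), Egr1 (0.000631), Junb (0.0140) and Jun (0.0207). The enteroendocrine-like 5-day sums in it rest on 12 cells, and whether the interaction holds without them was not tested.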

How the results depend on the processing

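Counts below are members called (adjusted p under 0.05, edgeR unless named). Scaling by all transcripts, the other cells summed, the age comparison in enteroendocrine-like cells and leaving out both doubted libraries were chosen after seeing the data. For Paneth-like cells against the other classes, 9 became 5 with scaling by all transcripts, where Junb (-0.11), Jund (-0.21), Ier2 (-0.14) and Zfp36 (-0.61) turned sign, and 5 of 7 tested with the other cells summed. In the 5-day libraries alone, goblet-like cells had 0 in place of 1 and enteroendocrine-like cells 0 in place of 6, with Jun (-0.17), Junb (-0.52), Egr1 (-0.61) and Zfp36 (-0.044) turned in sign. Enterocyte-like cells had 3 in place of 5 with DESeq2, all higher, and 3 (2 higher, 1 lower) with clusters tested on counts not used for clustering. Stem-like cells had 3 in place of 6 in the 8-week libraries alone, where 1025 of 4368 genes passed. Proliferating-like cells had 3 in place of 5 with scaling by all transcripts (2041 of 4182 genes passed). They had 2 in the 8-week libraries alone (1686 of 4368 genes).

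For later against 5-day libraries, all cells, 4 became 7 with the 8-week traced CD24+ libraries only and 7 without the libraries of 3 weeks. Beside these stood 3154 of 8514 and 3213 of 8318 genes that passed in either direction. In stem-like cells 1 became 2 with clusters on all counts. In proliferating-like cells 3 became 6 without a filter on low counts and 6 without the 3-week libraries. Beside these stood 961 of 13706 and 876 of 4843 genes. In goblet-like cells 0 became 1 without a filter. In enteroendocrine-like cells 1 became 2 without a filter, 2 with cells of at least 1500 transcripts and 0 with the 8-week traced CD24+ libraries only. The cause was not tested.

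The replicate numbers did not pair the libraries: the deviations of same-numbered 8-week traced CD24+ and 5-day libraries correlated at 0.052, -0.0017 and 0.052, and those of traced and non-traced at 0.110. With 8-week traced CD24+ replicates 1 to 3 against 5-day replicates 1 to 3 and the replicate block, the libraries and the fit changed together. In that fit 9 members passed over all cells (8 lower, 1 higher), beside 2835 of 8343 genes. In stem-like cells 2 members passed (1 lower, 1 higher), beside 383 of 1969 genes. The block, with replicates 1 and 2 of each group, left traced against non-traced at 0, over all cells and in tuft-like cells.

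Leaving out 1 library at a time gave 9 to 10 across classes, 7 to 9 for Paneth-like, 1 to 1 for goblet-like, 6 to 7 for tuft-like, 6 to 7 for enteroendocrine-like, 4 to 5 for enterocyte-like, 5 to 6 for stem-like and 3 to 5 for proliferating-like cells. Between ages it gave 4 to 5 over all cells, 4 to 7 in Paneth-like, 2 to 6 in proliferating-like, 1 to 1 in stem-like, 0 to 0 in goblet-like and 0 to 1 in enteroendocrine-like cells, and 0 to 0 in both comparisons of traced with non-traced cells.

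All genes called moved by over 1.5 times in these cases. Across classes 3412 became 6770 without a filter, 1843 with clusters and 1219 at 5 days alone. Clusters gave 698 in place of 1214 (Paneth-like), 503 of 930 (goblet-like), 821 of 1577 (tuft-like), 708 of 1319 (enteroendocrine-like), 1013 of 1638 (enterocyte-like), 830 of 1444 (stem-like) and 903 of 1913 (proliferating-like). The 5-day libraries alone gave 361, 209, 13, 496 and 490 for Paneth-, goblet-, enteroendocrine-, stem- and proliferating-like cells. Paneth-like cells had 3317 with all transcripts, goblet-like 579 at 8 weeks and 599 with the other cells summed, stem-like 696 with the other cells summed, and enteroendocrine- and proliferating-like 2331 and 3187 without a filter. Between ages, goblet-like cells had 172 without a filter, 26 with at least 5000 transcripts and 102 with clusters, in place of 43, and enteroendocrine-like cells 270 in place of 537 with the 8-week traced CD24+ libraries. Traced against non-traced had 200 with DESeq2 and 811 without a filter in place of 369, and in tuft-like cells 1, 9 and, with the block, 10 in place of 3.

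Of the values of single members under settings other than leaving out a library, 39 gained a call and 35 lost it. Another 8 turned sign with a call before or after the change of setting, and 1153 were counted as unchanged. Turns of sign without a call under either setting were counted as unchanged too, and the test across classes has no direction. Members with few transcripts (Fosb, Atf3, Dusp1) are limited by depth.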
